A study of Mus musculus with 9 samples.

Results

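The genes described here are the heat shock protein and DnaJ chaperones of mouse PV INs and the transcription factors Hsf1 and Hsf2. A gene was included when it is protein-coding, its symbol starts with Dnaj, Hspa, Hspb, Hspd, Hspe, Hsph or Hsp90 or is Hsf1 or Hsf2, and its level reached a CPM (the count scaled to the library size) of at least 1 in at least 1 of the 9 samples. There were 67 such genes among the 15069 genes that passed the same CPM minimum. Another 10 protein-coding genes with such a symbol stayed under it: Dnajb7, Dnajb8, Dnajc22, Dnajc5b, Dnajc5g, Hspa1l, Hspb3, Hspb7, Hspb9 and a second gene model named Hspa14. The prefix Hspb also brought in Hspbp1, which binds Hsp70 and releases its nucleotide, and Hspbap1, whose product binds a small heat shock protein. Neither is itself a heat shock protein.

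The samples came from PV-Cre; Rpl22HA/HA mice, in which the ribosomal protein gene Rpl22 carries an HA tag that is expressed where the Cre is active, in PV INs. Lentivirus with a non-target shRNA (shNT, 5 samples) or an shRNA against Ablim3 (shRNA, 4 samples) was injected into the DG of mice aged 2 months, and RNA bound to tagged ribosomes was immunoprecipitated from CA3/CA2 after 2 weeks. The shRNA acts in the DG, whose mossy fibers contact the PV INs, so the comparison asks how a change in that input alters the RNA of the interneurons. Each sample pooled 6 mice, male and female together, in both groups. Fewer tagged cells and less RNA per cell cannot be told apart in such bulk samples.

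Counts on genes ran from 18281719 to 34578837 per sample, and the 67 genes took between 0.952% and 1.33% of them. Ablim3 itself, measured outside the injected region, was at 16.9 ± 5.16 CPM (SD, n = 5) in shNT and 18.5 ± 3.42 CPM (SD, n = 4) in shRNA, and so does not check the labels. All 10 PV IN markers were detected, with a summed level of 4888 to 8050 CPM in shNT and 2903 to 7053 CPM in shRNA. Markers of other cells were present too, and no marker tested was at 0 in any sample. The 10 astrocyte markers summed to 561 to 1036 CPM in shNT and 905 to 4869 CPM in shRNA, and the 10 CA2/CA3 pyramidal markers to 799 to 1738 CPM and 1797 to 2232 CPM. Reads outside exons made up 9.76 to 18.6% of reads aligned to 1 place in shNT and 12.4 to 27.2% in shRNA. Of all samples, shRNA replicate 4 had the most reads outside exons and the most astrocyte RNA, and shNT replicate 2 had the most reads outside exons among the shNT samples.

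Chaperones bind unfolded or partly folded proteins and let them fold, refold or be passed on. The Hsp70 proteins (Hspa genes) clamp a client while they hold ADP, the J proteins (Dnaj genes) bring clients and trigger ATP hydrolysis, and nucleotide exchange factors, among them the Hsp110 proteins, open the clamp again. Hsp90 acts later, on near-native clients such as kinases and steroid receptors, small heat shock proteins hold unfolded proteins without ATP, and the Hspd1 and Hspe1 products form the closed folding chamber of the mitochondrion. Hsf1 switches on many of these genes upon stress by binding heat shock elements in their promoters, whereas unfolded proteins in the endoplasmic reticulum act through a different element. In neurons J proteins also serve the synapse: the products of Dnajc5 and Dnajc6 act on synaptic vesicles and clathrin coats.

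Either control element can be read in the promoters of some of the genes whose values follow. Promoter sequences from RefSeq (GRCm38.p6, from 250 bases before to 50 bases after the start site) were found for 54 of the 67 genes. There was none in that table for Dnajc11, Dnajc12, Dnajc18, Dnajc2, Dnajc30, Dnajc5, Hsf1, Hsp90aa1, Hsp90ab1, Hspa13, Hspa8, Hspa9 and Hspb2. A heat shock element of 3 units, GAANNTTCNNGAA or TTCNNGAANNTTC, stood in the promoters of 4 genes, Hspd1, Hspe1, Dnajb6 and Hsph1 (7.41% of those matched), and in those of 179 of all 27025 genes with a promoter of that length (0.662%). The match of Hsph1 lies after its start site and is not printed. Hspa1a, Hspa1b and Dnajb1, described below as heat-inducible, had a promoter in that table and gave no match to this pattern. The endoplasmic reticulum stress element, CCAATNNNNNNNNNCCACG on either strand, stood in those of Hspa5, Hsp90b1 and Dnajc3 (5.56%), and in those of 37 of all genes (0.137%). A match describes letters only, and binding was not measured here.

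The sequences below show these elements in capitals with the bases around them, to show the letters that were matched. Hspd1 and Hspe1 are transcribed away from each other and share 1 element, in which a match on each strand overlaps to give a run of 18 bases. All positions here are on GRCm38.p6. The shared element is printed on the strand of Hspe1, chr1:55088014-55088121. Dnajb6 is on the plus strand, chr5:29735807-29735897. The endoplasmic reticulum elements are those of Hspa5 (plus strand, chr2:34771980-34772088), Dnajc3 (plus strand, chr14:118937782-118937890) and Hsp90b1 (minus strand, chr10:86705488-86705694, which holds 2 matches on opposite strands).
Hspe1: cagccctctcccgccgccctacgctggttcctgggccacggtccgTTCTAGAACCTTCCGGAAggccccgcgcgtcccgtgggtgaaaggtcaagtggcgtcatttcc
Dnajb6: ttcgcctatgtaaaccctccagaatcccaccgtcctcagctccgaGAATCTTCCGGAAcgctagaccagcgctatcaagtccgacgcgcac
Hspa5: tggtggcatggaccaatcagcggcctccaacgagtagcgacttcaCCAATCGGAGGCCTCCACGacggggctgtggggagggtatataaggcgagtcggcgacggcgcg
Dnajc3: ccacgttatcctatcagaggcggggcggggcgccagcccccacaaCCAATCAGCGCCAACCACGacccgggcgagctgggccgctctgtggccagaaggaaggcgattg
Hsp90b1: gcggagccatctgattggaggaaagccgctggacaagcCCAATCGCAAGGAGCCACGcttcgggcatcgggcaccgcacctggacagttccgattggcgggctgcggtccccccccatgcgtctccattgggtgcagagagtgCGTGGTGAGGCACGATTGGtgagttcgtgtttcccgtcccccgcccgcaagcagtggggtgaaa

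By level per kb of exon the cytosolic chaperones led. Hsp90ab1, the constitutive cytosolic Hsp90, ranked 1 of 67 in shNT with 741 ± 161 CPM per kb (SD, n = 5). Hspa8, the constitutive Hsp70 that also uncoats clathrin vesicles, ranked 2 with 440.4 ± 116 CPM per kb. Hspbp1 followed with 233 ± 50.8, Hsp90aa1, the stress-responsive cytosolic Hsp90, with 216 ± 41.6, and Dnajc15, a J protein of the inner mitochondrial membrane, with 169.9 ± 42.8 CPM per kb. The lowest shNT sample of Hsp90ab1 (523 CPM per kb) lay just under the highest of Hspa8 (533 CPM per kb). The shNT values of Hspbp1, Hsp90aa1 and Dnajc15 overlap as well. These SDs do not cover the uncertainty from shared reads that is given below. The strictly heat-inducible Hspa1a and Hspa1b were near the bottom, at rank 60 and rank 62, with 2.43 ± 0.431 and 1.502 ± 0.298 CPM per kb. In every sample the level of Hspa8 per kb was between 144 and 234 times that of Hspa1a. Their near-identical copies share reads: 61.0% of the 50-base stretches of the exons of Hspa1a and 62.3% of those of Hspa1b occur elsewhere in the genome, as do 37.3% of those of Hspa8 and 56.2% of those of Hsp90aa1. The authors counted uniquely aligned reads alone, so the levels of these genes are uncertain.

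**Figure D1:**
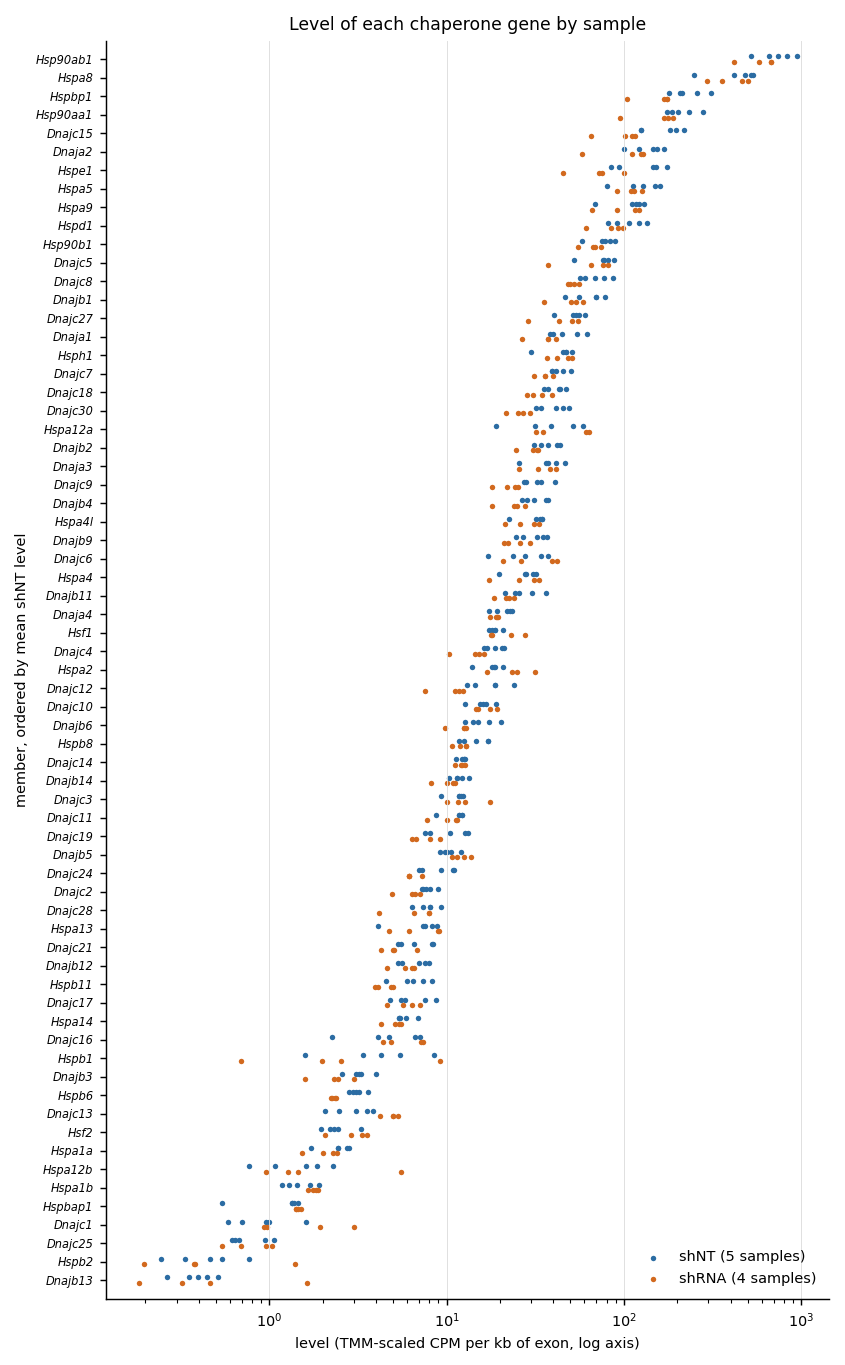
Level of each of the 67 genes in every sample (horizontal, TMM-scaled CPM per kb of exon, log axis; blue, 5 shNT samples; orange, 4 shRNA samples), ordered by the mean shNT level. Hsp90ab1 and Hspa8 stand at the top, Hspa1a and Hspa1b at rank 60 and rank 62, and the orange points of Dnajc13 lie to the right of its blue ones.

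No member passed the test between shRNA and shNT, which required an adjusted p under 0.05 together with a difference of 1.5-fold or more. With edgeR's quasi-likelihood test 0 of the 67 were called in either direction, where 262 of all 15069 genes were called higher (1.74%) and 2 lower (0.0133%). The lowest adjusted p of a member was 0.0591 (edgeR quasi-likelihood test, Benjamini-Hochberg over all genes), that of Dnajc30. The members nevertheless leaned to the lower side. The log2 fold change was negative for 48 and positive for 19, with a median of -0.22, against 0.11 over all genes. At an unadjusted p under 0.05, 16 members (23.9%) were lower in shRNA and 2 (2.99%) higher, where 13.4% of all genes were lower and 20.7% higher. All shRNA samples lay below all shNT samples for 8 members (11.9%) and above them for 1 (1.49%), where this held for 6.68% and 8.97% of all genes.

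Other tests called a few. The edgeR likelihood ratio test called Dnajc13 higher and Dnajc12, Dnajc15, Dnajc30 and Hspe1 lower, that is 1 and 4 members, where 11.2% of all genes were called higher and 3.6% lower. DESeq2 called 1 member higher and 7 lower, adding Dnajc9, Hspb11 and Hspbp1 to the lower ones, where 10.1% of all genes were called higher and 5.6% lower. Limma voom with sample quality weights called 1 higher and 5 lower, with Hspb1 added, where 15.3% and 4.1% of all genes were called.

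The lean to the lower side was uneven across samples. Relative to the shNT mean, the median member stood at -0.11, -0.26, 0.02, 0.14 and 0.19 log2 units in shNT replicates 1 to 5 and at -0.19, -0.09, -0.14 and -0.53 in shRNA replicates 1 to 4, while the same median over all genes stayed between -0.02 and 0.10. The groups overlap, and shNT replicate 2 lies below 3 of the 4 shRNA samples. Of the 67 members, 37 were lowest of all samples in shRNA replicate 4, 14 were lowest in shNT replicate 2, and 31 were highest in shNT replicate 5. Without shNT replicate 2 and shRNA replicate 4, 11 of 65 members tested were lower and 2 higher at an unadjusted p under 0.05, where 9.05% of all genes were lower and 19.2% higher, and the median was -0.21. With the percentage of reads outside exons added to the model as a covariate, 11 of 67 were lower and 6 higher, where 10.6% of all genes were lower and 19.2% higher, and the median was -0.08. The part of these reads in the result was not tested beyond that.

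The sample names fall into a set named YTa31 (3 shNT, 3 shRNA) and one named YTa32 (2 shNT, 1 shRNA), and what the sets mark is not stated in the labels. Within YTa31 the median of 65 members was -0.08, where that of all genes was 0.01. There 5 members were lower and 1 higher at an unadjusted p under 0.05, where 3.43% of all genes were lower and 6.88% higher. YTa32 holds too few samples for a value of its own.

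**Figure D2:**
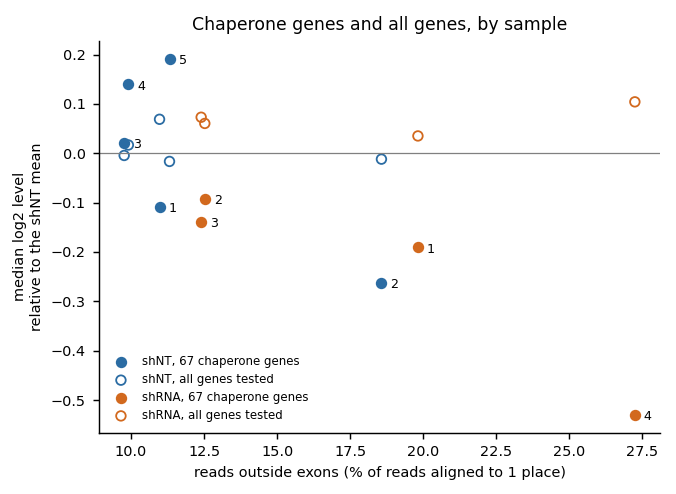
Median log2 level relative to the shNT mean (vertical) of the 67 chaperone genes (filled) and of all genes tested (open) in each sample, against reads outside exons as a percent of reads aligned to 1 place (horizontal). Blue points are shNT, orange points shRNA, and numbers are replicates. shRNA replicate 4, at 27.2% of reads outside exons, has the lowest chaperone median, -0.53, and shNT replicate 2, at 18.6%, has the lowest of the shNT samples, -0.26.

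Among the mitochondrial chaperones all 10 had a negative log2 fold change, with a median of -0.38, and 5, Hspe1, Dnajc15, Dnajc30, Dnajc19 and Dnajc4, were lower at an unadjusted p under 0.05, where 13.4% of all genes were. Within YTa31, 8 of the 10 were negative (median -0.14), and with the covariate for reads outside exons 6 were (median -0.19). Hspe1, the lid of the mitochondrial folding chamber (chr1:55144976-55148151, mm9, plus strand), was at 124, 223, 138, 217 and 259 CPM in shNT replicates 1 to 5 and at 148, 111, 106 and 66.6 CPM in shRNA replicates 1 to 4. Its groups overlap, since shRNA replicate 1 lies above shNT replicates 1 and 3. Its log2 fold change was the lowest of the members, -0.83 ± 0.27 (SE; edgeR quasi-likelihood test, adjusted p = 0.0746).

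Dnajc15 (chr14:78226024-78274724, mm9, minus strand), whose product restrains respiratory complex I and assists protein import, was at 81.1, 118, 81.3, 128 and 142 CPM in shNT and at 74.9, 72.0, 65.5 and 42.2 CPM in shRNA. The groups do not overlap, though the shRNA values come close to shNT replicates 1 and 3. The log2 fold change was -0.79 ± 0.22 (SE) and -0.44 within YTa31. With the trend of all genes over exon length removed it was -0.35. Dnajc30 (chr5:135540076-135541235, mm9, plus strand), a J protein tied to the mitochondrial ATP synthase, was at 37.0, 48.1, 39.6, 52.5 and 56.9 CPM in shNT and at 34.3, 31.5, 29.2 and 25.1 CPM in shRNA. The groups are apart here too, and the log2 fold change was -0.64 ± 0.16 (SE), or -0.37 with the exon length trend removed. Exons of Wbscr22 on the other strand cover 37.6% of the single exon of Dnajc30. The counting ignored strand, so reads there are shared by both genes and are not in these counts.

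The partner of Hspe1 in the folding chamber, Hspd1, starts from the same promoter region and carries the shared heat shock element shown above. It was at 241, 215, 283, 321 and 359 CPM in shNT and at 224, 262, 244 and 162 CPM in shRNA, a log2 fold change of -0.35 ± 0.20 (SE) with overlapping groups. The ratio of Hspe1 to Hspd1 counts was 0.515, 1.04, 0.488, 0.675 and 0.721 in shNT and 0.661, 0.423, 0.437 and 0.412 in shRNA. This ratio, chosen after the values of both genes were seen, differed by -0.48 log2 units between shRNA and shNT (geometric means 0.474 and 0.662), which an exact two-sided permutation test over the 126 splits of 5 and 4 samples did not separate (p = 0.103, smallest possible p = 0.00794). The exons of Hspd1 have 50.9% of their 50-base stretches elsewhere in the genome and those of Hspe1 17.0%. Hspa9, the mitochondrial Hsp70 that pulls proteins through the import channel, had a log2 fold change of -0.16 ± 0.23 (SE), and Dnajc19, which acts on it at that channel, -0.45 ± 0.20 (SE).

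**Figure D3:**
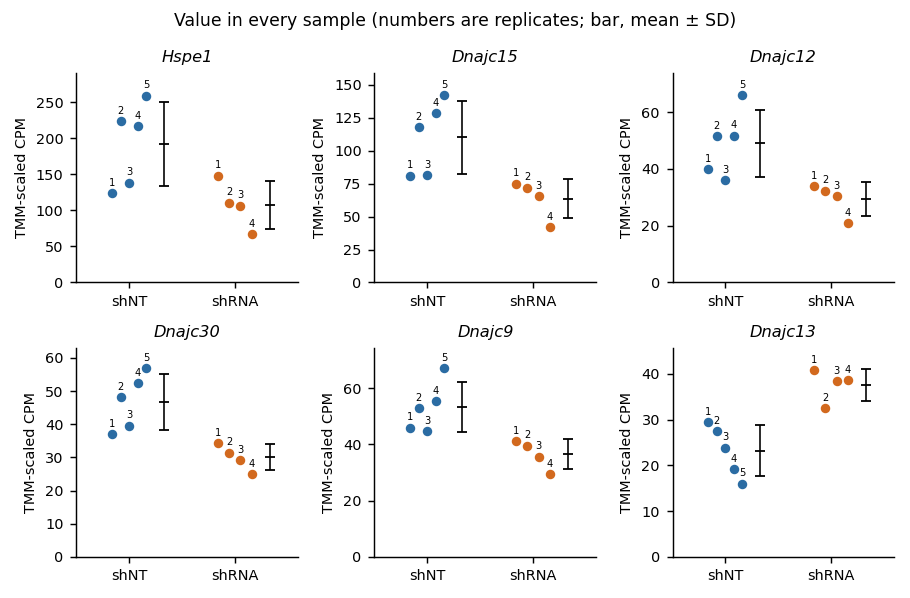
CPM after TMM scaling (vertical, from 0) of Hspe1, Dnajc15, Dnajc12, Dnajc30, Dnajc9 and Dnajc13 in each shNT (blue) and shRNA (orange) sample, numbered by replicate, with the mean ± SD of each group in black. The groups are apart except for Hspe1, where shRNA replicate 1 (148 CPM) lies above shNT replicates 1 and 3 (124 and 138 CPM). Dnajc13 is the member that is higher in shRNA.

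The other class C J proteins, which share only the J domain, leaned to the lower side too. They are those listed in neither the organelle nor the vesicle groups, and where each product resides was not checked. All 10 tested in this list had a negative log2 fold change (median -0.35), 5 with an unadjusted p under 0.05. Of these 5, 4 had groups that do not overlap: Dnajc12, Dnajc9, Dnajc8 and Dnajc2. Over all genes 13.4% were lower at that p and 6.68% had all shRNA samples below all shNT samples. Dnajc12 (chr10:62845191-62871588, mm9, plus strand), a co-chaperone of the aromatic amino acid hydroxylases, was at 39.9, 51.5, 36.0, 51.7 and 65.9 CPM in shNT and at 34.0, 32.3, 30.4 and 20.8 CPM in shRNA. Its highest shRNA value is just under its lowest shNT value, and the log2 fold change was -0.74 ± 0.21 (SE). Dnajc9, which chaperones histones, was at 46.0, 53.0, 44.9, 55.5 and 67.1 CPM in shNT and at 41.3, 39.6, 35.7 and 29.4 CPM in shRNA, a log2 fold change of -0.55 ± 0.16 (SE). Dnajc8, found with splicing factors, gave -0.44 ± 0.15 (SE), and Dnajc2, which works at the ribosome on nascent chains, -0.33 ± 0.14 (SE). The fifth, Dnajc24, takes part in diphthamide synthesis on elongation factor 2 and gave -0.50 ± 0.18 (SE). Within YTa31, 9 of the 10 stayed negative with a median of -0.22.

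Hspbp1, which releases nucleotide from Hsp70, was among the highest members by level per kb of exon and among those with groups apart. It was at 267, 317, 309, 385 and 459 CPM in shNT and at 261, 260.4, 251 and 154 CPM in shRNA. The shRNA values reach almost to the lowest shNT sample, and the log2 fold change was -0.59 ± 0.21 (SE; edgeR quasi-likelihood test, adjusted p = 0.0919). Within YTa31 it was -0.25.

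Of 5 cytosolic Hsp70s tested, 3 had a negative and 2 a positive log2 fold change (median -0.12). Hspa8 was at 1749, 1031, 2217, 2162 and 1994 CPM in shNT and at 1478, 2090.4, 1942 and 1228 CPM in shRNA. Its lowest value is that of shNT replicate 2, the groups overlap throughout, and the log2 fold change was -0.12 ± 0.26 (SE), which turns positive within YTa31 (0.12) and with the covariate for reads outside exons (0.29). Hspa1a was at 7.11, 5.04, 7.16, 8.01 and 8.24 CPM in shNT and at 7.04, 6.71, 5.85 and 4.46 CPM in shRNA, and Hspa1b at 3.62, 3.30, 4.01, 4.79 and 5.33 CPM and at 4.95, 4.65, 5.27 and 5.14 CPM. These 2 inducible genes stayed under 10 CPM in every sample of both groups, with log2 fold changes of -0.24 ± 0.21 and 0.25 ± 0.21 (SE). Hspa2, an Hsp70 best known from male germ cells, was at 47.5, 34.9, 52.7, 46.4 and 45.2 CPM in shNT and at 42.5, 58.9, 62.9 and 79.4 CPM in shRNA. It was 1 of the 2 members higher at an unadjusted p under 0.05 (log2 fold change 0.42 ± 0.18 SE), its highest value is that of shRNA replicate 4, and without that sample the log2 fold change was 0.26.

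The cytosolic Hsp90s had negative log2 fold changes that did not pass the test. Hsp90ab1 was at 1984, 1569, 2227, 2512 and 2826 CPM in shNT and at 1745, 2031, 2026 and 1262 CPM in shRNA (log2 fold change -0.33 ± 0.23 SE). Hsp90aa1 was at 738, 693, 799, 916 and 1101 CPM in shNT and at 662, 695, 742 and 374 CPM in shRNA (log2 fold change -0.46 ± 0.23 SE). In both, shRNA replicate 4 is the lowest sample and shNT replicate 5 the highest, and without shNT replicate 2 and shRNA replicate 4 the log2 fold changes were -0.30 and -0.34. Within YTa31 they were -0.02 and -0.12, and with the covariate for reads outside exons -0.04 and -0.18. Per kb, Hsp90ab1 was between 2.97 and 4.42 times Hsp90aa1 in every sample.

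Among the class A and B J proteins of the cytosol and nucleus, the main partners of Hsp70 in refolding, 8 of 10 tested had a negative log2 fold change (median -0.38). The 3 lower at an unadjusted p under 0.05, where 13.4% of all genes were, were Dnajb4, Dnajb6 and Dnajb2, at -0.43 ± 0.16, -0.41 ± 0.16 and -0.32 ± 0.15 (SE). Dnajb6, which keeps polyglutamine proteins from aggregating, was at 73.0, 80.3, 86.0, 98.9 and 117 CPM in shNT and at 71.8, 74.0, 71.7 and 56.1 CPM in shRNA, so that only shRNA replicate 2 reaches into the shNT range. Its exons have 48.8% of their 50-base stretches elsewhere in the genome. Dnajb1, the heat-inducible partner of Hsp70, was at 139, 115, 172, 192 and 172 CPM in shNT and at 125, 146, 132 and 88.1 CPM in shRNA (log2 fold change -0.36 ± 0.19 SE), and Dnaja1 gave -0.42 ± 0.20 (SE). None of the 9 tested within YTa31 had an unadjusted p under 0.05 there.

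The Hsp110s and divergent Hsp70s lay around 0, with 4 positive and 2 negative values (median 0.01). Hsph1, the heat-inducible Hsp110, was at 333, 210.2, 357, 333 and 322 CPM in shNT and at 294, 360.4, 341 and 261 CPM in shRNA, a log2 fold change of 0.01 ± 0.18 (SE). Hspa4 and Hspa4l, the other nucleotide exchange factors of this family, gave -0.04 ± 0.21 and -0.17 ± 0.19 (SE). In all 3 shNT replicate 2 was far below the other shNT samples, and without it the log2 fold changes were -0.10, -0.14 and -0.27. Hspa12b, known from endothelial cells, was at 8.46, 6.88, 3.98, 5.95 and 2.82 CPM in shNT and at 4.72, 3.52, 5.32 and 20.3 CPM in shRNA. The high value is that of shRNA replicate 4, where the 10 endothelial markers summed to 874 CPM against 67.4 to 328 CPM in the other samples. Without that sample the log2 fold change of Hspa12b, 0.59, turned to -0.33. The part of endothelial RNA in its difference was not tested.

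The endoplasmic reticulum chaperones, 12 genes, held no member with an unadjusted p under 0.05 (7 negative, 5 positive, median -0.20). Hspa5, the Hsp70 of the endoplasmic reticulum that carries the stress element shown above, was at 395, 282, 453, 559.9 and 529 CPM in shNT and at 385, 443, 402 and 323 CPM in shRNA. Its groups overlap, and its log2 fold change was -0.19 ± 0.21 (SE). The other genes with that element also differed by little more than their error: Hsp90b1, the Hsp90 of the endoplasmic reticulum, gave -0.21 ± 0.16 and Dnajc3, which acts with Hspa5, 0.18 ± 0.17 (SE). The highest value of Dnajc3, 90.8 CPM, is that of shRNA replicate 4, and without that sample its log2 fold change was -0.010. The highest log2 fold change of all members with a mean of at least 5 CPM was that of Dnajc1, a J protein of the endoplasmic reticulum membrane. It was at 11.1, 18.8, 6.82, 8.16 and 11.6 CPM in shNT and at 22.4, 10.83, 11.4 and 35.0 CPM in shRNA, a log2 fold change of 0.82 ± 0.38 (SE). Its 3 highest values are in shRNA replicates 4 and 1 and shNT replicate 2, which are also the 3 samples with the most reads outside exons. With that share as a covariate the log2 fold change of Dnajc1 was 0.0095. The part of these reads in its difference was not tested.

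The small heat shock proteins ranked between 38 and 66 of the 67 per kb, and 4 of 5 tested had a negative log2 fold change (median -0.36). Hspb6 was at 6.86, 6.47, 7.06, 8.32 and 7.37 CPM in shNT and at 5.48, 5.43, 5.11 and 5.23 CPM in shRNA. The groups do not overlap and vary little within themselves, with a log2 fold change of -0.44 ± 0.16 (SE; edgeR quasi-likelihood test, adjusted p = 0.096). Hspb11, at -0.55 ± 0.19 (SE), bears the family name but is a subunit of the intraflagellar transport complex of cilia. Hspb1 was at 4.41, 8.76, 1.65, 5.64 and 3.48 CPM in shNT and at 2.62, 0.71, 2.06 and 9.51 CPM in shRNA. Its highest values are those of shRNA replicate 4 and shNT replicate 2, and its log2 fold change of -0.36 ± 0.65 (SE) was -1.45 without shRNA replicate 4. Its exons have 55.6% of their 50-base stretches elsewhere in the genome. Hspb8, which works with the co-chaperone Bag3 in autophagy, gave -0.28 ± 0.15 (SE).

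The J proteins of synaptic vesicles, clathrin coats and endosomes included the 1 member with all shRNA values above those in shNT. Dnajc13 (chr9:104053927-104165260, mm9, minus strand), which acts in endosomal sorting, was at 29.5, 27.4, 23.9, 19.2 and 15.98 CPM in shNT and at 40.9, 32.6, 38.4 and 38.6 CPM in shRNA. Every value in shRNA exceeded every value in shNT, and the log2 fold change was 0.70 ± 0.18 (SE; edgeR quasi-likelihood test, adjusted p = 0.0621). It was 0.43 within YTa31, 0.60 with the covariate and 0.27 with the exon length trend removed. Without shNT replicate 2 and shRNA replicate 4 Dnajc13 stood at 0.77 and passed the test (edgeR quasi-likelihood test, adjusted p = 0.0498). So did 4.75% of all genes in that direction and 0.014% in the other. Those samples were picked for removal with their values already in view. Dnajc6, the auxilin that recruits Hspa8 to clathrin coats, was at 205, 102, 222, 165 and 142 CPM in shNT and at 157, 251, 237 and 125 CPM in shRNA (0.20 ± 0.26 SE). Dnajc5, the cysteine string protein of synaptic vesicles, was at 536, 365, 614, 567 and 533 CPM in shNT and at 455, 569, 531 and 260.3 CPM in shRNA (-0.20 ± 0.24 SE). For both of these the groups overlap.

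The transcription factors did not differ beyond their spread. Hsf1 was at 37.7, 40.7, 40.9, 45.3 and 39.1 CPM in shNT and at 50.4, 38.6, 39.5 and 60.1 CPM in shRNA (log2 fold change 0.21 ± 0.15 SE), with shRNA replicates 4 and 1 above the other samples. Hsf2 was at 6.51 ± 1.34 CPM (SD, n = 5) in shNT and 7.90 ± 1.77 CPM (SD, n = 4) in shRNA (log2 fold change 0.28 ± 0.22 SE).

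**Figure D4:**
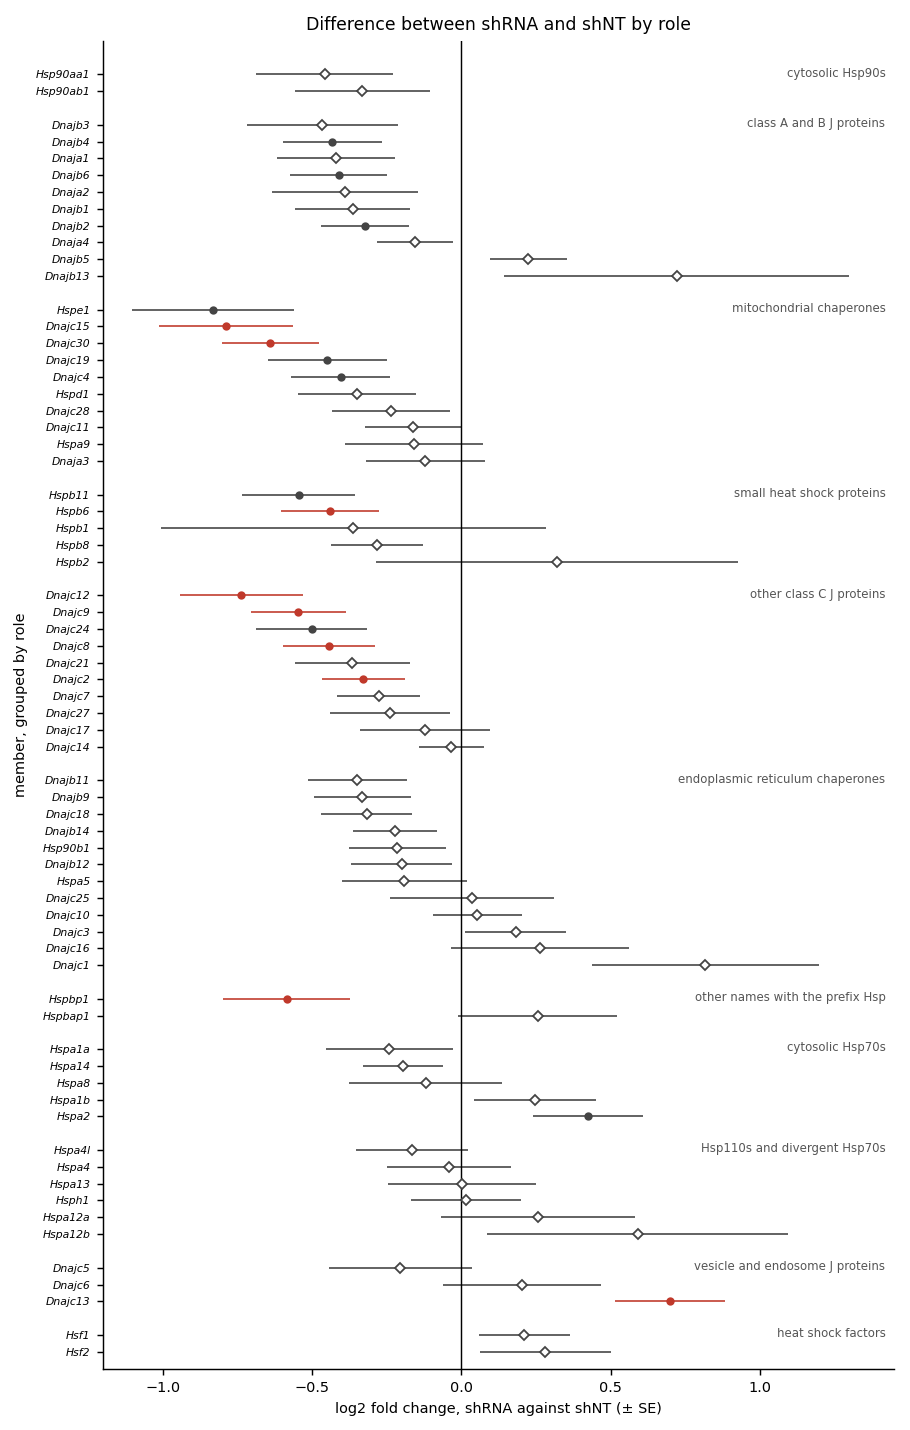
Log2 fold change of shRNA against shNT (horizontal, ± SE) of the 67 genes, grouped by role and ordered by the groups' medians. Filled circles have an unadjusted p under 0.05 in edgeR's quasi-likelihood test, open diamonds do not, and red marks the 9 members whose groups do not overlap. All mitochondrial and all other class C genes lie left of 0, and Dnajc13 is the red point on the right.

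Genes that work with these chaperones but are not among them also leaned to the lower side. The list of co-chaperones of Hsp70 and Hsp90 holds 28 genes, among them Trap1 and Hyou1, which are chaperones themselves. Of the 28, 23 had a negative log2 fold change (median -0.31), and 10 were lower and 1 higher at an unadjusted p under 0.05. All shRNA samples lay below all shNT samples for 7. Over all genes 13.4% were lower, 20.7% higher and 6.68% had all shRNA below all shNT. Within YTa31 3 of the 28 were lower and 1 higher (median -0.11), where 3.43% of all genes were lower and 6.88% higher. Among the co-chaperones, Bag1, a nucleotide exchange factor, went from 219.96 CPM in shNT to 144 CPM in shRNA (log2 fold change -0.61), Cdc37, which loads kinases onto Hsp90, from 305 to 218 CPM (-0.49), and Ptges3, the Hsp90 co-chaperone p23, from 161 to 108 CPM (-0.58). The mitochondrial Hscb, a J protein for iron-sulfur cluster assembly, gave -0.84, and Grpel1, the exchange factor of Hspa9, -0.48. Of the 5 with a positive log2 fold change, the 1 higher at an unadjusted p under 0.05 was Fkbp5, an Hsp90 co-chaperone induced by glucocorticoids. It went from 23.6 to 35.8 CPM (log2 fold change 0.60, edgeR quasi-likelihood test, adjusted p = 0.0433), close to the 1.5-fold minimum. Fkbp5 was the 1 gene of the 28 called (3.57%), where 1.74% of all genes were called higher. The co-chaperones given by name here were picked with their values in view. All 8 subunits of the cytosolic chaperonin TRiC were negative (median -0.20) and none had an unadjusted p under 0.05, and within YTa31 5 of the 8 were positive (median 0.04). Of 16 genes of endoplasmic reticulum stress and folding, 11 were negative (median -0.23), 4 were lower and 1 higher at an unadjusted p under 0.05, and 0 were called by the quasi-likelihood test. Within YTa31 the median of these genes was -0.04.

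Markers moved with the groups as well. All 10 PV IN markers had a negative log2 fold change (median -0.35, 2 with an unadjusted p under 0.05, 0 called), and Pvalb went from 997 to 526 CPM (log2 fold change -0.92). All 10 astrocyte markers were positive (median 1.39), as were all 10 of oligodendrocytes (median 0.74, summed level 814 to 2461 CPM in shNT and 1531 to 3136 CPM in shRNA), 8 of 10 of CA2/CA3 pyramidal neurons (median 0.66, 1 called), 7 of 8 of dentate granule cells (median 1.12), 9 of 10 of endothelial cells (median 0.50), 6 of 10 of microglia (median 0.21) and all 8 tested of ependymal cells and choroid plexus (median 0.66), 2 more of which, Aqp1 and Kcne2, were under the CPM minimum. Several of these medians rest on shRNA replicate 4, where the astrocyte, endothelial and ependymal markers summed to 4869, 874 and 90.7 CPM, against 905 to 1157, 67.4 to 146 and 23.2 to 30.3 CPM in the other shRNA samples. Without it the endothelial markers were negative in 10 of 10 (median -0.91) and the ependymal and choroid plexus markers in 5 of 8 (median -0.21), while the astrocyte markers were positive in 10 of 10 (median 0.43). The medians of the other lists without it were -0.14 for PV INs, 0.62 for oligodendrocytes, 0.62 for CA2/CA3 pyramidal neurons, 0.81 for dentate granule cells and 0.18 for microglia. With the covariate for reads outside exons 8 of the 10 PV IN markers were positive (median 0.12). In the main fit the median of the members, -0.22, has the sign of that of the PV IN markers. With the covariate the signs differ, since the median of the members was -0.08. The part of the cell mixture in the differences of the members was not tested.

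Exon length moved with the differences too. Across the 67 members the log2 fold change had a Spearman correlation of 0.417 with exon length, and across 15047 genes with a length it had 0.406, so longer genes stood higher in shRNA in both. These are correlations across genes of the same libraries, which are not independent replicates. The 34 members at or under their median exon length (3685 bases) stood at a median log2 fold change of -0.34, and 12 of them were lower at an unadjusted p under 0.05, and the 33 longer ones stood at -0.16, and 4 were lower. With the trend of all genes over exon length removed, the median of the members was -0.35 and that of all genes -0.06.

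**Figure D5:**
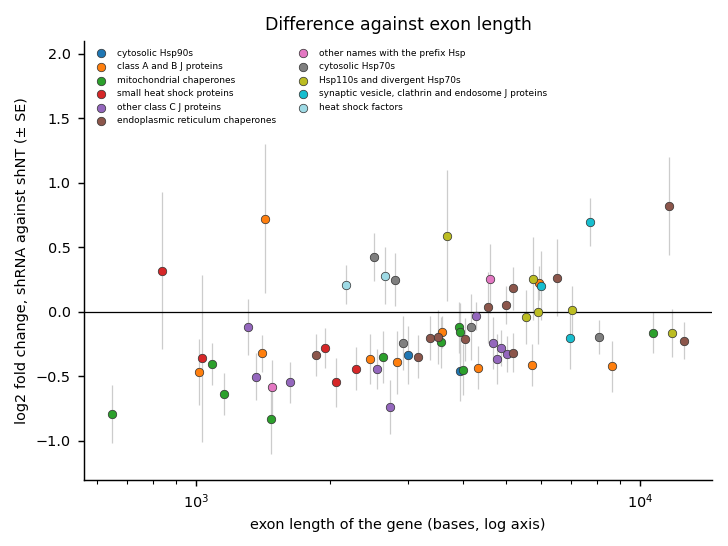
Log2 fold change of shRNA against shNT (vertical, ± SE) against exon length in bases (horizontal, log axis) for the 67 genes, coloured by role. Hspe1, Dnajc15 and Dnajc30 are short genes in the lower left, and Dnajc13 and Dnajc1 are long genes above 0.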

How the data were processed

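RNA sequencing measured ribosome-associated RNA in 9 samples, 5 shNT and 4 shRNA, read to 50 bases. Per the labels and the methods of the study, the authors used STAR to align reads against the transcriptome of mm9 and HTSeq 0.6.0 to count those with a unique alignment on each gene, ignoring strand, and they deposited the raw counts of each sample. Reads at more than 1 place or shared by overlapping genes are not in these counts, which lowers genes with near-identical copies. The authors' annotation is not given in the sources used here. Gene names, positions and exon lengths came from the GENCODE annotation of mm9, which named 37205 of 37620 identifiers. Exon length is that of all annotated exons of a gene merged, so a long merged length lowers the level per kb and its rank. Count rows that name no gene stayed out of library sizes. Of these rows, only the reads that fell on no gene are given in the report as reads outside exons. Reads shared by overlapping genes or aligned at more than 1 place are not counted as outside exons.

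The 15069 genes that reached a CPM of 1 in any sample were scaled by TMM and tested with the quasi-likelihood test of edgeR 4.0.16 (R 4.3.3, limma 3.58.1, DESeq2 1.42.0), with condition as the only term and Benjamini-Hochberg adjustment over all genes. A gene was called at an adjusted p under 0.05 if it also differed by 1.5-fold or more, after the methods of the study, which name edgeR but not its test. Levels are TMM-scaled CPM. The p-values measure the spread between pools of 6 mice.

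The members and gene lists were chosen with earlier results of these data known. Genes named were those called, a fixed set by role, the 6 highest and 6 lowest log2 fold changes among members with a mean of at least 5 CPM, the 5 highest levels per kb, and members whose groups do not overlap. Another 5 members were named after their values were seen because of an unadjusted p under 0.05. Alternatives covered other tests, scalings and filters, blocks by replicate number or name set, the YTa31 samples alone, reads outside exons as a covariate, exon length and leaving out each sample. Leaving out shNT replicate 2 and shRNA replicate 4 together was chosen after seeing the data. The code was tested on simulated data.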

Additional observations from a re-analysis of the deposited data

Results flagged for a closer look

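In 9 of 88 groups of values tested, 1 sample lay farther from the others of its group than Dixon's 95% critical value allows, where chance gives about 4.4. In shNT replicate 2 there were 5 such low values. Hspa4 was at 109.3 CPM there (other shNT samples 154.1 to 176.8), Hspa4l at 264 CPM (378.5 to 408.8), Hsph1 at 210.2 CPM (321.7 to 357.4), Hspa9 at 272.2 CPM (439.9 to 512.9) and Dnajc5 at 364.9 CPM (532.9 to 613.7). In shRNA replicate 4 there were 3, all low: Dnajb6 at 56.15 CPM (other shRNA samples 71.73 to 73.96), Hsp90aa1 at 374.3 CPM (662 to 741.9) and Hspbp1 at 154.1 CPM (251 to 260.7). In shRNA replicate 1 Dnajc24 was high, at 9.895 CPM (8.38 to 8.427). The cause was not tested.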

How the results depend on the processing

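Of 44 named members, 31 kept their direction under every alternative fitted. In 1010 pairs of a named member and an alternative, the direction and the call were unchanged in 949, the member was called only under the alternative in 26, and the direction turned in 35. Members called higher, 0 in the main analysis, were 1 with the likelihood ratio test, DESeq2, limma voom and without both shNT replicate 2 and shRNA replicate 4, and 0 to 1 when each sample was left out. Those called lower, 0 in the main analysis, were 4 with the likelihood ratio test, 7 with DESeq2, 5 with limma voom and 0 to 5 when each sample was left out, where the 5 and the 1 higher came without shNT replicate 1, which called 2.72% of all genes lower and 6.68% higher. Members higher at an unadjusted p under 0.05 (2, against 20.7% of all genes) were 5 with limma voom (28%), 6 with the covariate for reads outside exons, 1 with DESeq2 size factors or YTa31 alone, and 1 to 2 when each sample was left out. Those lower (16, against 13.4% of all genes) were 29 with limma voom (21.4% of all genes), 5 in YTa31 alone (3.43%) and 9 without shNT replicate 4 (9.05%) to 21 without shNT replicate 2 (13.7%). With the replicate number as a replicate block they were 3 (2.24% of all genes), and the higher ones 1 (10.2%). Same-numbered samples deviated from their group means with correlations of -0.267, -0.641, 0.486 and -0.181, which are of mixed sign. Samples with different numbers were not compared in this way, so these values cannot decide whether the numbers pair samples. The members' median, -0.222 in the main analysis, stayed negative, between -0.345 and -0.078. It was smallest in size in YTa31 alone (-0.078) and with the covariate for reads outside exons (-0.084). No move exceeded the spread between samples (0.191). That spread is almost as large as the main median, so it cannot show that the median is stable.

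Directions turned as follows, the cause not tested. Hspa12b was -0.060 with limma voom, -0.55 in YTa31 alone, -0.43 with the covariate, -0.33 to 0.85 with each sample left out and -0.22 without both samples. Hspa4 was 0.12 with limma voom, 0.003215 with the stricter filter, 0.10 in YTa31, 0.30 with the covariate, -0.16 to 0.11 with each sample left out and 0.031 without both. Hsph1 was -0.38 with the exon length trend removed, -0.029 with DESeq2 or its size factors, -0.025 with no filter, -0.098 to 0.085 with each sample left out and -0.0075 without both. With the exon length trend removed Hspa12a was -0.061, Dnajb5 -0.11, Dnajc16 -0.11 and Dnajc6 -0.13. In YTa31 and with the covariate Hspa8 was 0.12 and 0.29, Hspa5 0.094 and 0.074, Hspa9 0.050 and 0.23, and Dnajc5 0.011 and 0.18. Hspa4l was 0.11 with the covariate and Hsf1 -0.048 with limma voom. A few members under 1 CPM in most samples, such as Hspb2 and Dnajb13, were limited by their counts.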
